A study of Bombyx mori with 2 samples.

Results

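The 4 genes described here, *BGIBMGA005277*, *BGIBMGA005259*, *BGIBMGA001444* and *BGIBMGA000520*, were named "TPA: putative cuticle protein" in the deposited BLAST column and were chosen because they differed strongly and in opposite directions between the libraries. They are 4 of the 29 genes with a putative cuticle protein name, of the 147 genes with any cuticle protein name and of the 12376 genes in the expression table. The values that chose them were their FPKM (fragment numbers scaled to transcript length and library size) in the wildtype and the *nm2* mutant, so the differences of these genes are a description and were given no test. DGE libraries had been made from the heads of 2nd instar silkworm larvae (*Bombyx mori*) in the pre-molting stage, 1 library for the wildtype strain C603 and 1 for the *nm2* mutant, with 6 larvae pooled in each. The *nm2* mutant arose in C603 and carries a deletion within the coding sequence of *BmCPG10*, which encodes a glycine-rich cuticular protein. It does not molt in the 2nd instar, becomes lustrous and dies as a larva. With 1 library per strain there was no replicate check, and strain, pool and library cannot be told apart. Bulk heads were sequenced, so fewer epidermal cells and less RNA per cell cannot be told apart either.

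The insect cuticle is built of chitin fibres and cuticular proteins that the epidermal cells secrete. At each molt a new cuticle is laid down under the old one, the old one is digested, and the genes of cuticular proteins are switched on and off in turn as the titer of 20-hydroxyecdysone rises and falls. Many cuticular proteins carry the Rebers and Riddiford domain, which binds chitin. Its RR-1 form is typical of soft cuticle and its RR-2 form of hard cuticle, such as the head capsule. Other families are named for their glycine-rich or tweedle sequences. The specific role of the proteins of the 4 genes is not given by their names.

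The gene models of the 4 members differed in size. *BGIBMGA005277* had a listed gene length of 435 bases (145 codons), whereas *BGIBMGA000520*, *BGIBMGA005259* and *BGIBMGA001444* had 930, 957 and 963 bases (310, 319 and 321 codons). The length was known only for the genes that the authors listed as differentially expressed. All 1727 lengths were multiples of 3 and are read here as coding lengths, although they were labelled only as gene lengths. Among the other cuticle protein genes in that list, the median was 612 bases for the 35 with the higher *nm2* level and 699 bases for the 23 with the lower one, with ranges of 237 to 1470 and 396 to 4560 bases. Each member was the single gene with its best BLAST hit, so no other gene model carried the same hit. The E-values of these hits were 3.52e-106 for *BGIBMGA001444*, 2.73e-68 for *BGIBMGA005277* and 3.95e-67 for *BGIBMGA000520*. *BGIBMGA005259* had the weakest hit of the members at 6.7e-33, although its model was nearly as long as that of *BGIBMGA001444*. In the deposited molecular function annotation, *BGIBMGA005277* stood in 1 term, structural molecule activity, and the other members in 0. That term held 21 genes, 11 of them higher and 10 lower in the mutant. Only genes already listed as differentially expressed had been annotated, so every gene of the term had to differ and nothing is read from these counts. Of these 21 genes, 13 had a cuticle protein name, with 10 of the 13 higher.

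*BGIBMGA005277* was the member for which the study had designed quantitative RT-PCR primers. They are shown here as listed and are 24 and 25 bases long. The stretch of the transcript that they amplify was not located, because no sequence of the gene was used.
forward primer: gccacttccagttcaactacgaga
reverse primer: cttgtaggcacccttaacttcgatg

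*BGIBMGA005277* was the member with the higher level in the *nm2* mutant. It had 185 FPKM in the wildtype library and 32989.5 FPKM in the *nm2* library. The *nm2* level was the highest of all 12376 genes in that library (rank 1), whereas the wildtype level had rank 739. The fold-change was 178, with a 95% counting interval of 158 to 201 from 278 wildtype and 53296 *nm2* reads recovered from FPKM and coding length. Reads are not independent molecules, so this interval and those that follow cover counting error only. They do not say how large the change would be by another method, and the study's quantitative RT-PCR result is not reported here. On the log2(FPKM + 1) scale the difference was 7.47, and of the 9158 genes that reached 5 FPKM in either library 2 had a larger one. Among the cuticle protein genes 1 gene had a larger one, the RR-1 gene *BGIBMGA002548*, which had 18.8 and 5014 FPKM. *BGIBMGA005277* made up 0.0161% of the summed FPKM of the wildtype library and 2.79% of that of the mutant. Of the FPKM of all cuticle protein genes it made up 0.439% and 27.4%.

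*BGIBMGA005259* had the opposite pattern, with a high level in the wildtype and a low one in the *nm2* mutant. It had 2438 FPKM in the wildtype library, where it was the 3rd most abundant of the cuticle protein genes, and 11.2 FPKM in the *nm2* library, where it had rank 50 among them. The level in the *nm2* mutant was 217-fold lower, and the recovered 8434 wildtype and 42 *nm2* reads gave a counting interval of 160 to 301. The log2 difference of -7.64 was the lowest of the 83 cuticle protein genes at 5 FPKM or more, and 12 genes of the whole table were lower.

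*BGIBMGA001444* was also abundant in the wildtype. It had 1491 FPKM in the wildtype library and 38.5 FPKM in the *nm2* library, a level 38.7-fold lower (counting interval 32.7 to 45.8, from 5190 and 145 reads). Its log2 difference was -5.24. It kept the highest level of the 3 lower members in the *nm2* mutant, and its interval there, 32.6 to 45.5 FPKM, lay above those of the other lower members.

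*BGIBMGA000520* had the lowest level of the 3 lower members in both libraries. It had 263 FPKM in the wildtype library and 8.26 FPKM in the *nm2* library, 31.8-fold lower (counting interval 22.04 to 47.3, from 882 and 30 reads). Its log2 difference was -4.83. In the *nm2* mutant its level could not be told from that of *BGIBMGA005259* at this depth, since the counting intervals were 5.59 to 11.8 FPKM and 8.12 to 15.2 FPKM.

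**Figure D1:**
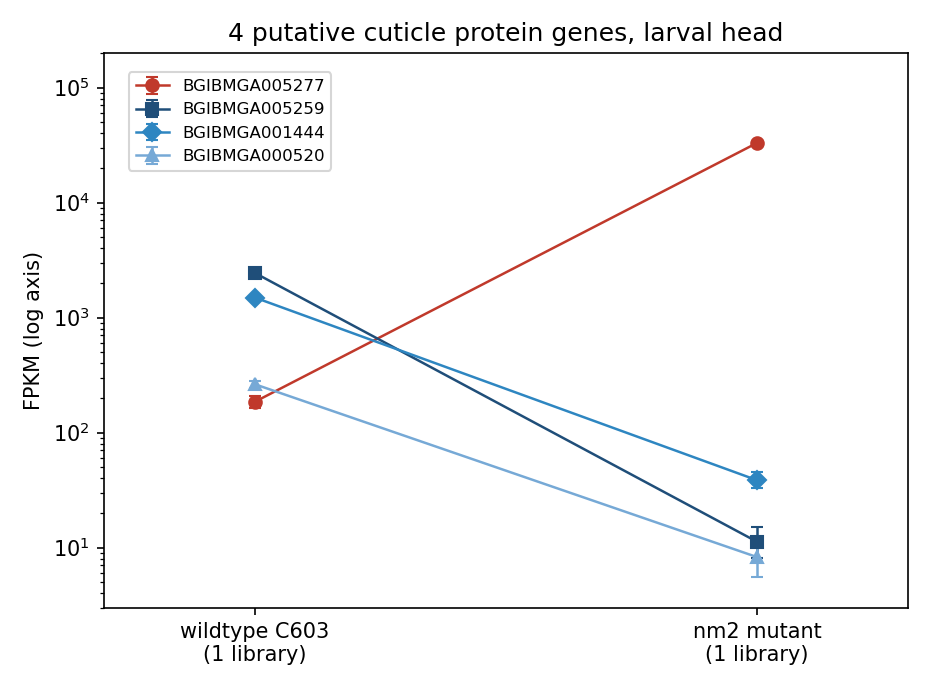
FPKM of the 4 members (log axis) in the wildtype and the *nm2* library, 1 point per library, with 95% counting intervals from recovered reads as bars; lines join the points of a gene and stand for no intermediate sample. *BGIBMGA005277* goes from 185 to 32989.5 FPKM, and the other members go from 263 to 2438 FPKM in the wildtype to 8.26 to 38.5 FPKM in the *nm2* mutant.

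The order of the members was therefore different in the libraries. In the wildtype it was *BGIBMGA005259*, *BGIBMGA001444*, *BGIBMGA000520* and *BGIBMGA005277*, with intervals that did not overlap (the lowest of them being 246 to 281 FPKM for *BGIBMGA000520* and 164 to 209 FPKM for *BGIBMGA005277*). In the *nm2* mutant *BGIBMGA005277* came first and *BGIBMGA001444* next, and the other members overlapped. Among the lower members, the decrease of *BGIBMGA005259* was 5.61 times that of *BGIBMGA001444* and 6.83 times that of *BGIBMGA000520*, with counting intervals that lay apart. The decreases of *BGIBMGA001444* and *BGIBMGA000520* differed 1.22 times and their intervals overlapped. The levels of the 3 lower members summed to 4191 FPKM in wildtype heads but to 58.0 FPKM in *nm2* heads. They made up 9.91% of the FPKM of all cuticle protein genes in wildtype heads and 0.0481% in *nm2* heads. All 4 members together went from 4377 to 33047.5 FPKM, and nearly all of the latter was *BGIBMGA005277*.

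The other putative cuticle protein genes differed less, but the members were chosen for their large differences, so nothing is read from this. Genes are called higher or lower here if they reached 5 FPKM in either library and log2((*nm2* + 1)/(wildtype + 1)) was 1 or more, or -1 or less. By this rule, 8.83% of the 9158 genes at 5 FPKM were called higher and 15.0% lower, or 809 and 1371 genes. The median log2 ratio of genes at 5 FPKM in both libraries was -0.28. Once this median was set to 0, the counts were 1151 and 929. Of the 29 putative cuticle protein genes, 17 had 5 FPKM or more, and 3 of them were higher and 5 lower, but all 4 members are in these counts through their choice. Without the members 2 of 13 were higher and 2 were lower, with a median log2 difference of -0.51, against -0.30 for all genes at 5 FPKM or more. The members were the 4 putative cuticle protein genes with the largest absolute log2 difference, and the gene just outside was *BGIBMGA000329* at 4.32, next to *BGIBMGA000520* at -4.83.

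*BGIBMGA000329* and *BGIBMGA000335* were the other higher genes of the list. *BGIBMGA000329* had 418 and 8363 FPKM in wildtype and *nm2* heads, and *BGIBMGA000335* had 0.62 and 11.1 FPKM, a log2 difference of 2.90. The other lower genes were *BGIBMGA002664*, with 653 and 99.3 FPKM, 6.58-fold lower, and the *CPH43*-named gene *BGIBMGA014493*, with 17.0 and 7.41 FPKM. The latter was no longer called after rescaling to a median of 0.

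Other abundant genes of the list did not pass. The most abundant ones in the wildtype lay above *BGIBMGA005259* and *BGIBMGA001444*. The *CPH43*-named gene *BGIBMGA005303* had 15362 and 10473 FPKM, and *BGIBMGA002175*, a gene with the same BLAST name as the members, had 14322 and 17075 FPKM, so that in the *nm2* mutant both lay below *BGIBMGA005277*. The *CPH45*-named gene *BGIBMGA004124* had 1422 and 2172 FPKM, and the second *CPH43*-named gene *BGIBMGA005302* had 607 and 418 FPKM. Several gene models shared the *CPH43* hit, and how their reads were split was not tested. Of the less abundant numbered genes that did not pass, those with the largest differences had 43.4 and 26.8 FPKM (*BGIBMGA001331*), 31.4 and 21.8 FPKM (*BGIBMGA001459*) and 8.15 and 3.97 FPKM (*BGIBMGA009344*). The members' own BLAST name, without a number, was held by 14 genes, of which 8 had 5 FPKM or more, with 3 higher and 4 lower, members included. Without the members, 2 of 4 were higher and 1 was lower. The 15 putative cuticle protein genes named with a *CPG*, *CPH* or *CPR* number had 9 at this level, with 0 higher and 1 lower. This split of the list was made after its values were seen.

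**Figure D2:**
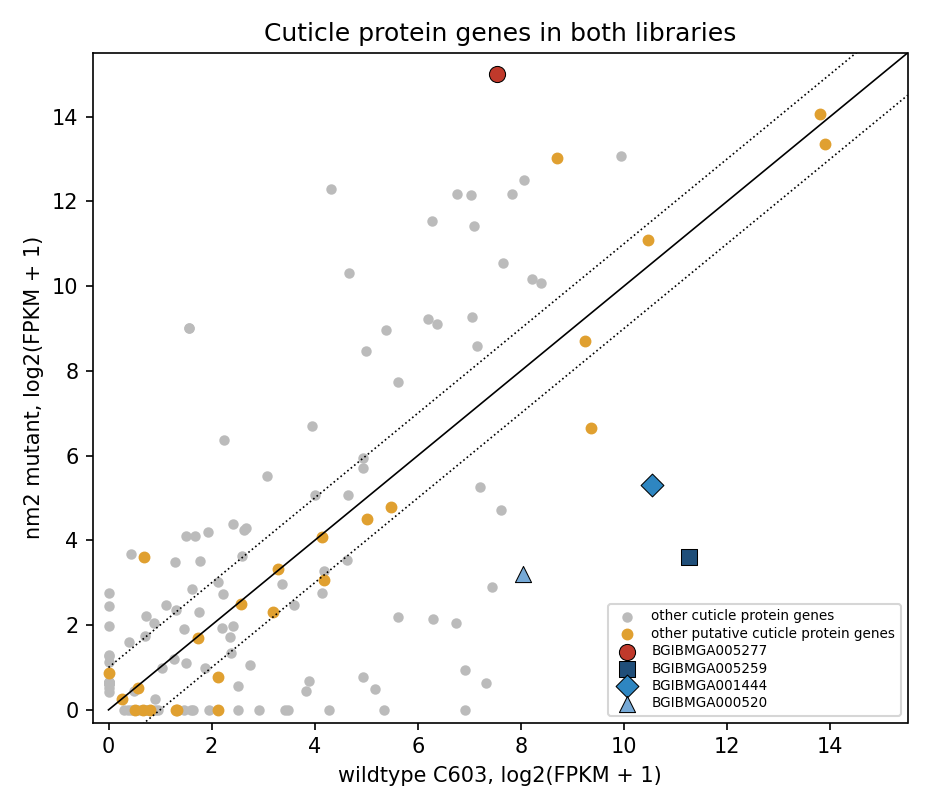
Wildtype level (x axis) and *nm2* level (y axis) of each of the 147 cuticle protein genes, both as log2(FPKM + 1), 1 point per gene. The solid line marks equal levels and the dotted lines a log2 difference of 1; *BGIBMGA005277* lies at the top, the 3 lower members lie far under the lines, and the 2 most abundant other putative cuticle protein genes lie between the dotted lines.

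Set against the other cuticular protein families, both directions of the members were present elsewhere. Of all 83 cuticle protein genes at 5 FPKM or more, 40 were higher and 27 lower, with a median log2 difference of 0.89, and without the members 39 and 24 of 79 with a median of 0.996. Of the 38 genes named RR-1, 13 were higher and 5 lower of 21 at this level, with a median of 2.11. The 38 genes named RR-2 had 12 at this level, 5 higher and 6 lower, with a median of -0.35. The RR-2 counts were 10 and 12 with no limit on low FPKM and 2 and 3 with a limit of 20 FPKM. The hypothetical cuticular proteins had 9 higher and 3 lower of 15, the glycine-rich ones 4 higher and 5 lower of 9, and the RR-3 and tweedle genes 1 higher and 1 lower of 2 each. The 9 higher hypothetical genes include 2 models of the same name with identical FPKM in both libraries, *BGIBMGA011767* and *BGIBMGA014293*. Of 5 genes with other cuticle names 4 were higher and 1 lower. The lower one was named for naked cuticle, which is a regulator of Wnt signalling and not a cuticular protein. The lists go by BLAST name, and the mutated *BmCPG10* (*BGIBMGA002602*) is in none of them or of the sums over cuticle protein genes. The FPKM of the 143 cuticle protein genes other than the members summed to 37900.5 for wildtype and 87541.8 for *nm2* heads, 2.31 times as high.

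**Figure D3:**
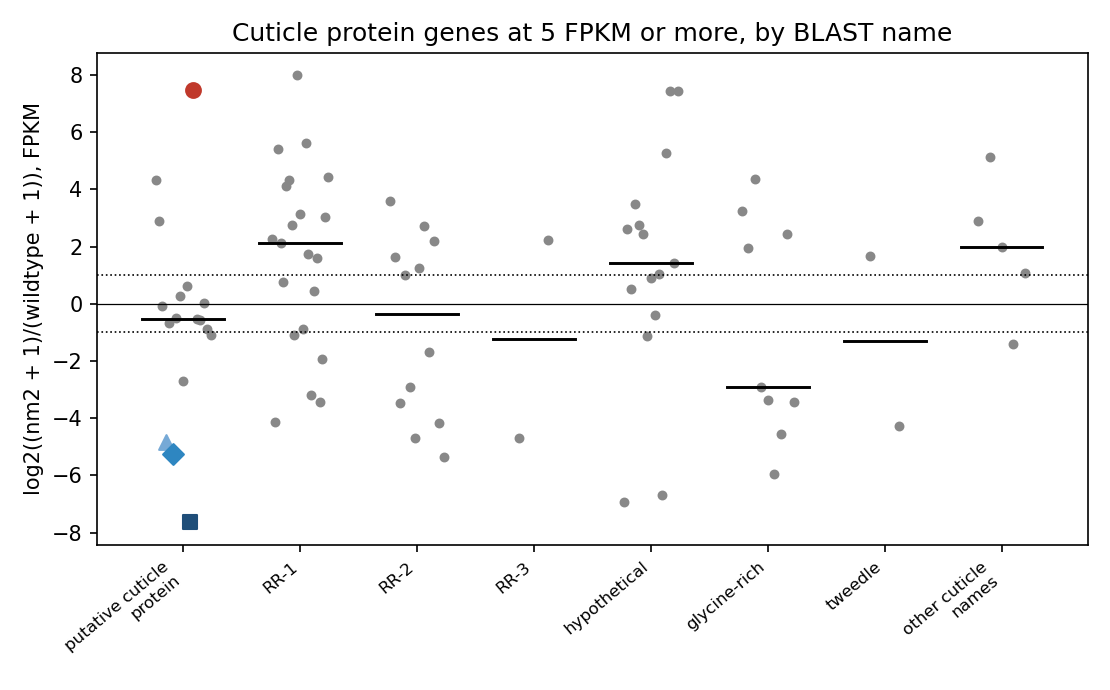
log2((*nm2* + 1)/(wildtype + 1)) of the cuticle protein genes at 5 FPKM or more, grouped by BLAST name, 1 point per gene, with the median of each group as a bar and dotted lines at 1 and -1. The members, which were chosen for their large differences, are the larger coloured symbols at 7.47 and at -7.64, -5.24 and -4.83. They are drawn as circle, square, diamond and triangle in the order given at the start. They lie beyond all other putative cuticle protein genes.

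The cuticle protein genes with the most similar levels were found by the Euclidean distance in log2(FPKM + 1) over the 2 libraries, which is a description of 2 points per gene. The members were chosen by these same levels, so nothing is read from members that lie near each other. Nearest to *BGIBMGA005277* were *BGIBMGA000329* at a distance of 2.30, the RR-1 gene *BGIBMGA014199* at 2.56 (267 and 5813 FPKM) and the glycine-rich gene *BGIBMGA004074* at 2.84 (225 and 4641 FPKM). Nearest to *BGIBMGA005259* were *BGIBMGA001444* at 1.83, *BGIBMGA000520* at 3.23 and *BGIBMGA002664* at 3.58. *BGIBMGA001444* lay nearest to *BGIBMGA002664* at 1.79, and the glycine-rich gene *BGIBMGA006662* (195 and 25.3 FPKM) followed *BGIBMGA005259* at 2.98. *BGIBMGA000520* had the closest match of all members, the glycine-rich gene *BGIBMGA008466* at 0.67 (173 and 6.47 FPKM). It was followed by *BGIBMGA006662* at 1.57 and the RR-3 gene *BGIBMGA000247* at 1.74 (106 and 3.14 FPKM).

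The members were also compared with the gene models beside them in the order of gene IDs, 3 on each side. Of these 24 models, 16 had 5 FPKM or more, and 2 were higher and 2 lower, the latter by so little (*BGIBMGA005275* and *BGIBMGA005279*, -1.01 and -1.22) that neither passes after rescaling to a median of 0. Over all genes at this level 8.83% were higher and 15.0% lower, so nothing is read from these counts. The model after *BGIBMGA005277*, *BGIBMGA005278*, is the RR-1 gene *CPR3* and differed in the same direction, with 24.4 and 1259 FPKM and a log2 difference of 5.63. The models before it did not go with it. *BGIBMGA005276* and *BGIBMGA005275*, both named for a subunit of a poly(A)-specific ribonuclease, had 54.4 and 29.0 FPKM and 7.01 and 2.98 FPKM, and the dynactin 4 gene *BGIBMGA005274* had 29.1 and 16.9 FPKM. *BGIBMGA005279*, named for an N-acetylgalactosaminyltransferase, had 33.8 and 13.9 FPKM.

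Next to *BGIBMGA001444* also lies an RR-1 gene, *CPR20* (*BGIBMGA001445*), but its wildtype level was 0.68 FPKM and the table lists its *nm2* level at 0. The other neighbours of *BGIBMGA001444* at 5 FPKM or more lay between -0.37 and 0.52 on the log2 scale and included *BGIBMGA001443*, which has no BLAST name, at 89.9 and 129 FPKM. Beside *BGIBMGA000520*, the zinc finger gene *BGIBMGA000521* had 9.90 and 8.40 FPKM and the Y-box protein gene *BGIBMGA000526* had 2308 and 2140 FPKM. Around *BGIBMGA005259*, the uncharacterized *BGIBMGA005258* had 5.57 and 7.11 FPKM and *BGIBMGA005260* had 5.16 and 5.39 FPKM. The third model after it, *BGIBMGA005262*, named for 4-hydroxyphenylpyruvate dioxygenase, an enzyme of tyrosine breakdown, had 15.7 and 146.6 FPKM. It thus differed in the direction opposite to *BGIBMGA005259*.

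*BGIBMGA005259* and *BGIBMGA005277*, the members farthest apart in their differences, stand near each other in the ID order. The table listed 14 gene models between them, of which 12 had 5 FPKM or more, with 1 higher, 2 lower and 9 neither, and 0 of the 14 had a cuticle protein name. Over all genes at 5 FPKM or more 8.83% were higher and 15.0% lower, so nothing is read from these counts. The log2 differences of the 12 models lay between -1.42 and 3.14. Of their neighbours, 4 of *BGIBMGA005277* and only 1 of *BGIBMGA005259* matched a RefSeq gene of the silkworm assembly ASM3026992v2. All of these lay on the same chromosome, and *BGIBMGA005275* and *BGIBMGA005276* matched the same gene. The members themselves were matched to no RefSeq gene, so their own place is known only from the ID order.

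**Figure D4:**
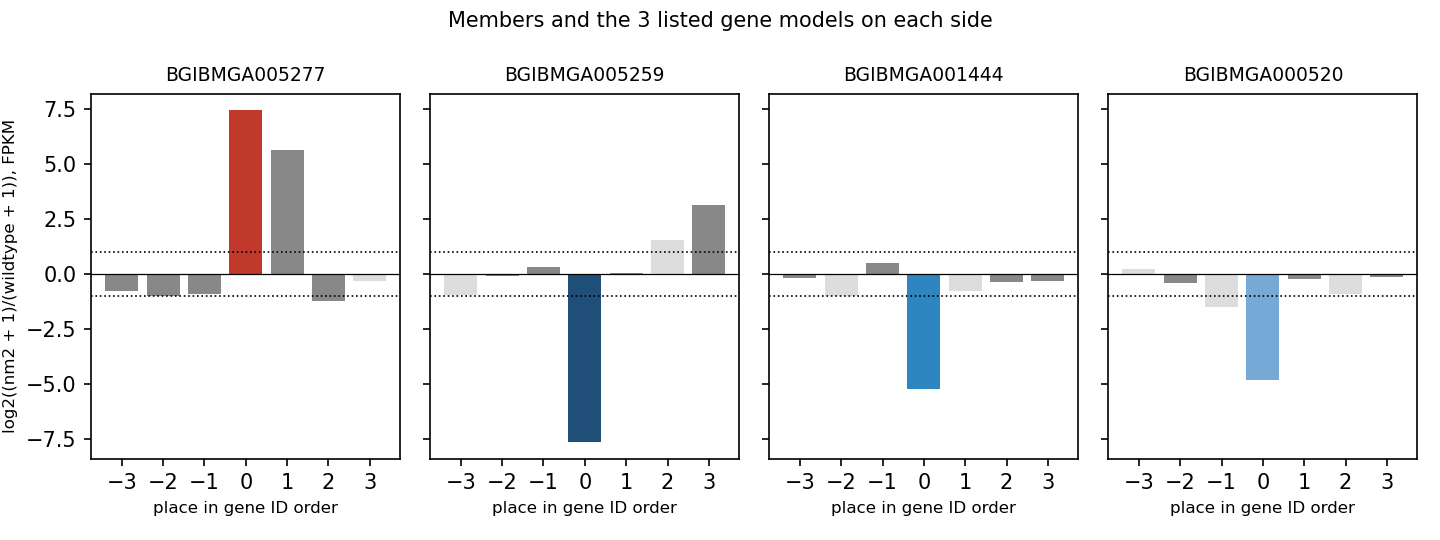
log2((*nm2* + 1)/(wildtype + 1)) of each member (coloured bar at place 0) and of the 3 listed gene models before and after it in gene ID order; pale bars are models under 5 FPKM in both libraries, and dotted lines mark 1 and -1. Beside *BGIBMGA005277* the bar of *CPR3* at 5.63 is the tall one, and beside *BGIBMGA001444* and *BGIBMGA000520* no model at 5 FPKM or more reaches 1 or -1.

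Enzymes that build, modify or digest the chitin to which cuticular proteins bind were listed by name. Of the chitin synthase genes, *chitin synthase A* (*BGIBMGA002963*), the epidermal form, had 41.0 and 19.1 FPKM and *chitin synthase B* (*BGIBMGA002960*), the midgut form, had 8.00 and 20.2 FPKM. The chitin deacetylase gene *BGIBMGA010573* had 64.1 and 21.4 FPKM. Of 10 genes with chitinase names, 5 were lower and 0 higher. The names include chitinase-like and chitinase-related genes, so not all 10 are known to digest the old cuticle. The chitinase precursor genes *BGIBMGA010240* (462 and 3.39 FPKM) and *BGIBMGA008709* (748 and 6.99 FPKM) had log2 differences of -6.72 and -6.55, beside -7.64 for *BGIBMGA005259*. Of 5 beta-N-acetylglucosaminidase genes at 5 FPKM or more, 4 were lower and 0 higher. By the same rule 15.0% of all genes at this level were lower and 8.83% higher. Of 13 tanning enzyme genes at this level, 3 were higher, among them tyrosine hydroxylase (*BGIBMGA000563*, 12.9 and 70.7 FPKM), and 6 were lower, among them *laccase 2A* (*BGIBMGA006745*, 14.4 and 0.71 FPKM), an enzyme that hardens the cuticle. With a log2 threshold of 2, 3 chitinase genes and 1 beta-N-acetylglucosaminidase gene were lower, and 1 tanning enzyme gene was higher. With a limit of 20 FPKM, 3 tanning enzyme genes were lower. With the median set to 0, 4 chitinase, 3 beta-N-acetylglucosaminidase and 0 chitin synthase genes were lower, and 4 tanning enzyme genes were higher and 5 lower. With 1 library per strain none of these counts was tested.

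The libraries held 12912619 clean reads of the wildtype and 12900347 of the *nm2* mutant, of which 55.48% and 60.12% mapped to genes. Reads that matched several positions were 4.67% and 6.83% of the clean reads. *RPL3*, *GAPDH* and *BmActin3* had nm2/wildtype ratios of 0.897, 0.849 and 1.17, and the mutated gene *BmCPG10* (*BGIBMGA002602*) had 117 and 278 FPKM, a value over the whole gene that does not separate the deleted stretch and so does not check the labels. Genes named for other tissues were present in both libraries, also for the silk gland and midgut, which are not tissues of the head. Their lists were made by name and catch related genes that other cells use. Of 40 genes with fat body names 13 were higher and 3 lower of 23 at 5 FPKM or more, their FPKM summed to 14405 and 36126, and 7 and 6 were listed at 0. Of 61 genes with muscle-type names (47584 and 33119 FPKM, 1 and 2 at 0) 1 was higher and 7 lower of 52, but the higher one and 4 of the lower ones were unconventional myosins, which are not muscle markers. The muscle genes *BGIBMGA002259* (myosin regulatory light chain 2, 13370 and 9257 FPKM) and *BGIBMGA014227* (muscle myosin heavy chain, 2150 and 1630 FPKM) had log2 differences of -0.53 and -0.40. Of 39 genes with neuronal and eye names (826 and 798 FPKM, 2 and 1 at 0) 4 were higher and 2 lower of 25, and many of them are general trafficking or RNA-binding genes. The 3 neuroglian models were higher, whereas *BGIBMGA005888*, named for the neuronal RNA-binding protein elav, was lower (17.7 and 4.78 FPKM), and all 6 opsin genes were under 5 FPKM. Of 38 genes with haemocyte names (859 and 1352 FPKM, 1 and 1 at 0) 4 were higher and 4 lower of 26, but 16 of them, with 3 of the lower ones, were disintegrin and metalloproteinase genes. Of the 4 prophenoloxidase and hemocytin genes 2 were higher, *BGIBMGA012764* (prophenoloxidase-1, 1.49 and 8.20 FPKM) and *BGIBMGA013746* (prophenoloxidase activating enzyme, 55.1 and 706 FPKM), and both hemocytin models were neither. Of 7 genes with silk gland names 0 were higher and 1 lower of 6 (5899 and 7737 FPKM, 0 and 1 at 0). The lower one was *BGIBMGA011342*, named for fibroinase (1058 and 402 FPKM), not for a silk protein. Fibroin heavy chain (2284 and 3860 FPKM), fibroin light chain (1700 and 2085 FPKM) and fibroin P25 (274 and 295 FPKM) were neither. So were sericin 2 (562 and 1081 FPKM) and fibroin-modulator-binding protein-1 (21.8 and 13.9 FPKM). With the median set to 0, 2 genes of this list were higher. Of 2 midgut genes 1 was higher and 1 lower (99.2 and 86.6 FPKM, 0 at 0 in either library). The part of these tissue lists in the differences of the members was not tested.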

How the data were processed

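Total RNA of pooled heads was enriched for mRNA with oligo (dT) beads and sequenced as single-end reads on an Illumina HiSeq instrument. Clean reads were mapped by the authors against SilkDB genes, RSEM gave the abundances, and FPKM for 12376 genes were deposited, along with percentages of mapped reads and counts of clean reads. They also deposited gene lengths, ratios, P-values and FDR of the differentially expressed genes, of which only the lengths were used. The members and gene lists were chosen with earlier results of these data known, and lists were made by BLAST name.

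The difference was log2((nm2 + 1)/(wildtype + 1)), with a pseudocount of 1 FPKM, and genes with 5 FPKM or more in either library were called at a difference of 1 or more in size. It understates the change of low genes. No test between strains was possible. Reads per gene were recovered as FPKM times the length less 36 bases times a library total, found by search as the total that gave the most whole reads. At totals of 3756000 and 4049000 reads, 92.5% of 134 wildtype and 95.4% of 218 *nm2* values lay within 0.1 of a whole number. Totals 2 times as large would also give whole numbers, but they lay outside the range that was searched. The smaller totals give the wider intervals. They are below the number of reads mapped to genes, for a reason that is not known. Intervals are 95% exact binomial intervals for ratios and exact Poisson intervals for levels. The search and the intervals were tested on simulated data. These were drawn as Poisson reads with the same 36 bases taken off and with totals inside the searched range. The simulation therefore could not check these assumptions. Gene IDs were matched to RefSeq by the accession of the BLAST hit, which placed 5747 genes and 0 members. The genes named were the members, the 10 other putative cuticle protein genes with the largest differences, the 3 nearest cuticle genes and the 3 models on each side of each member, the extremes of other lists, and the control genes. Alternatives were pseudocounts of 0.1 and 0.01 FPKM, scaling to a sum of 1000000 (TPM), to the median or to the housekeeping genes, limits of 0, 1 or 20 FPKM, a log2 threshold of 2, and 0 or 48 bases taken off the length. Computations used SciPy 1.17.1, pandas 2.3.3 and NumPy 2.4.6 under Python 3.11.15, and figures used matplotlib 3.10.9. Sequences of the members' proteins and promoters were not used here.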

Additional observations from a re-analysis of the deposited data

How the results depend on the processing

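Every member kept its direction under the other pseudocounts and scalings. The members were chosen for large differences, which these settings move little, so no other outcome was possible. With the *nm2* library rescaled to a median log2 ratio of 0, the difference of *BGIBMGA005277* moved from 7.47 to 7.75 and that of *BGIBMGA001444* from -5.24 to -4.96, in each case beyond the counting interval, because all *nm2* values are raised by the same factor. The number of lower putative cuticle protein genes went from 5 to 9 with no limit on low FPKM and also with a limit of 1 FPKM, since more genes were counted. With a limit of 20 FPKM, 17 cuticle protein genes were lower, and 502 genes of the whole table were higher and 816 lower. With a log2 threshold of 2 the whole table had 296 higher and 436 lower. Other settings kept the counts of these lists within 1.5 times. The 18 smaller lists of families, pathways and tissues were rerun under the same settings, a choice made after seeing the data. Of their 324 counts 46 lay over 1.5 times from the main count, 20 of them with the log2 threshold of 2 and 5 with the median set to 0. Other bases taken off the length moved no ratio beyond its interval. With 1 library per strain no library could be left out. No paired analysis was possible because each strain has 1 library. Depth limits the levels of *BGIBMGA005259* and *BGIBMGA000520* in the *nm2* mutant, which rest on 42 and 30 recovered reads.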

Other observations

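Among the cuticle protein genes at 5 FPKM or more, 2 gene models had identical FPKM in both libraries. *BGIBMGA011767* and *BGIBMGA014293*, both named cuticular protein hypothetical 26, had 1.96 and 511 FPKM each and a log2 difference of 7.44. Both were counted as separate genes in the counts and sums of cuticle protein genes above. They were noticed after the values were seen, and none of the 4 members shared its values with another cuticle protein gene.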
